A study of Mus musculus with 10 samples.

Results

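The genes described here encode the MHC class II molecules of the mouse, called H2 in this species, with the chaperones that load them and the factor that switches them on. The set held 8 genes, listed by name, with earlier results of these data known. They were the invariant chain Cd74, the chains H2-Aa, H2-Ab1 and H2-Eb1, the loading factors H2-DMa, H2-DMb1 and H2-Oa, and the coactivator Ciita. All 8 were among the 49671 gene IDs of the count table, and all 8 passed the filter on low counts that left 13699 genes to test. RNA was sequenced from TH2 cells, the helper T cells known for IL-4, IL-5 and IL-13, which were polarised in culture from naive CD4+ T cells and harvested on day 5. The mice were C57BL/6 of genotype WT and second-generation offspring. The regular diet of the mice behind the 3 control libraries supplied 400 IU/kg vitamin D3. The 7 deficient libraries came from mice bred and reared without ultraviolet light on a diet (TD97340) that lacks vitamin D metabolites. Batch 1 of the labels held control libraries 1 and 2 and deficient libraries 1 to 5, and batch 2 held control library 3 and deficient libraries 6 and 7. The labels give no ages and do not tie libraries to individual mice. Each p-value therefore reflects the spread among these samples alone, part or all of which may be technical.

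MHC class II molecules are pairs of an alpha and a beta chain that carry peptides from engulfed protein to the cell surface, where CD4+ T cells read them. Cd74 occupies the groove of a new pair in the endoplasmic reticulum and guides it to the endosome, where H2-DM removes the last fragment of Cd74 and H2-O restrains H2-DM. B cells, dendritic cells and macrophages transcribe these genes through CIITA, a coactivator with no DNA binding of its own that docks on factors bound to an X box and a Y box in front of each gene. Mouse T cells, unlike activated human T cells, are known to make little or none of their own class II.

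On GRCm38, H2-Oa lay at chr17:34092340-34095234, H2-DMa at chr17:34119541-34139101, H2-DMb1 at chr17:34153072-34160230, H2-Ab1 at chr17:34257689-34269419 and H2-Eb1 at chr17:34305867-34316674, all on the plus strand. H2-Aa lay on the minus strand at chr17:34282744-34287823. Ciita lay on the plus strand at chr16:10480059-10528418. All 8 were annotated as protein coding.

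The box pair through which CIITA works is shown here because the genes that carry it moved in opposite directions. RefSeq's promoter table for GRCm38.p6 held 5 of the 8 genes, and 8 of 12 when H2-Ea, H2-Eb2, H2-DMb2 and H2-Ob were added. The 250 bases before each start were searched on both strands for GNAAC, which begins the X box, followed after 20 to 30 bases by TGATTGG, which holds the Y box and its CCAAT core read backwards. These letters were chosen after reading the promoters. The pair stood in front of the RefSeq starts of H2-Aa, H2-Eb1, H2-DMb1 and H2-Oa, and of H2-Eb2 and H2-Ob besides. The gene spans given above are GENCODE's instead. By these, the H2-DMb1 window lies inside its gene, and the H2-Oa window runs past the gene's start. Both H2-DMa entries lacked it, and H2-DMb2 held TGATTGG alone. Of 32851 promoters in the table, 0.271% held the pair and 7.23% held TGATTGG. Each window is given 5′ to 3′ on the gene's own strand, with both motifs in capitals.
H2-Aa, chr17:34287855-34287916, minus strand: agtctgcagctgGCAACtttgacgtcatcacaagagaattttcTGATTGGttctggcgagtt
H2-Eb1, chr17:34305764-34305824, plus strand: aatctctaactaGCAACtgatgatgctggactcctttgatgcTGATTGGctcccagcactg
H2-DMb1, chr17:34153085-34153146, plus strand: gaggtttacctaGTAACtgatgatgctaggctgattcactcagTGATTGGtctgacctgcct
H2-Oa, chr17:34092291-34092352, plus strand: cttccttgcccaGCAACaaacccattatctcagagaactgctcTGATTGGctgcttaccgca
H2-Eb2, chr17:34325531-34325591, plus strand: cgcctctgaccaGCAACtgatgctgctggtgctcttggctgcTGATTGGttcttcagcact
H2-Ob, chr17:34238806-34238864, plus strand: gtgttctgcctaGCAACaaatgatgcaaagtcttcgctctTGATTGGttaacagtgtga
The spacer between both motifs was 26 bases in H2-Aa, H2-DMb1 and H2-Oa, 25 in H2-Eb1 and H2-Eb2, and 23 in H2-Ob. Among these promoters, those of H2-Eb1 and H2-DMb1 belonged to genes that were higher in deficient libraries, and those of H2-Oa and H2-Ob to genes that were lower.

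Library totals ran from 5800698 to 6462146 counts in controls and from 7029207 to 13433276 in deficient libraries, so that 1 count was worth at most 0.172 CPM (counts per 1000000 of a library's total). The labelled cell type was present: Gata3, the master regulator of TH2 cells, stood at 56.9 to 65.4 CPM in controls and 32.9 to 43.1 CPM in deficient libraries, and Il13 at 61.4 to 92.1 CPM and 168 to 255 CPM. Il4, at 14.5 to 15.7 and 9.39 to 21.5 CPM, and Il5, at 12.6 to 19.96 and 17.1 to 37.3 CPM, overlapped between the diets. Markers of cells that display class II were present too, and some libraries stood apart by them. The summed level of 15 B cell markers was 21.7, 18.1 and 136 CPM in control libraries 1 to 3. It was 64.4, 103, 71.6, 92.7, 369, 362 and 415 CPM in deficient libraries 1 to 7. Control library 3 was thus the highest control, and deficient libraries 5 to 7 the highest of all. Of these 15 markers 13 were tested, 2 passed upward and 0 downward, beside 29.4% and 28.6% of all genes tested. The count upward was 9 without deficient library 5 and ran from 0 to 10 over all alternatives. Control library 3 also held 20 counts of H2-Ea, a gene that C57BL/6 mice are known not to transcribe, beside 0 and 1 counts in the other controls and 0 in every deficient library. Its labelled strain was not tested here. Without it, H2-Eb1 (log2 fold change 3.81, adjusted p = 0.00289), H2-DMb1 (2.30, adjusted p = 0.00144), H2-Oa (-1.36, adjusted p = 0.00686) and Cd74 (adjusted p = 3e-08) still passed, and Ciita did not (adjusted p = 0.0788). That fit left only deficient libraries in batch 2, so its diet differences rest on batch 1. In bulk RNA, fewer cells of a type and less RNA per cell cannot be told apart.

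Across the 8 genes, 4 passed the test upward in deficient libraries (Cd74, H2-Eb1, H2-DMb1 and Ciita), 1 passed downward (H2-Oa), and 3 did not pass (H2-Aa, H2-Ab1 and H2-DMa). The test was edgeR's quasi-likelihood test with diet and batch as terms, with p-values adjusted by Benjamini-Hochberg over all 13699 genes. Over all those genes 29.4% passed upward and 28.6% downward, 58% in all, so 5 of 8 is near the background. The count depended on deficient library 5 and on the tool and its settings. Without that library all 8 passed, 5 upward and 3 downward, where 61.9% of all genes passed. On all libraries, limma-voom with a quality weight estimated for each library also called all 8, where the share was 60.7%. It was not run without these weights. The median log2 fold change, deficient minus control, was 2.43 over the 8 genes and 0.02 over all genes tested. Every deficient library lay above every control for 3 of the 8 (29.4% of all genes) and below for 1 (21.4% of all genes).

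**Figure D1:**
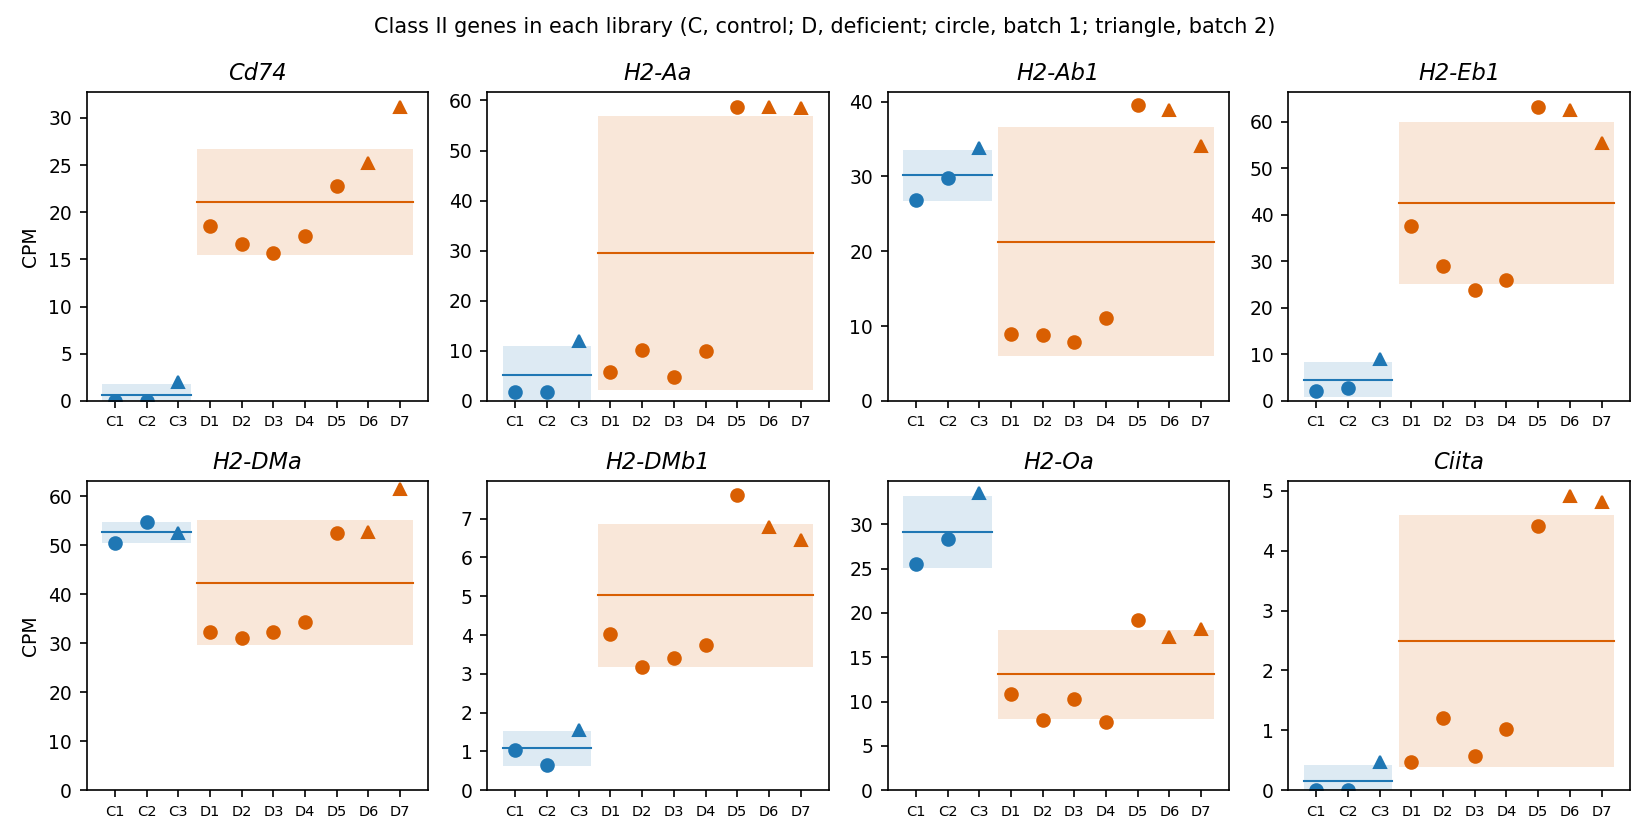
Level of each of the 8 genes in CPM (y axis, from 0) in control libraries C1 to C3 (blue) and deficient libraries D1 to D7 (orange), with lines at the group means, bands of 1 SD, and circles for batch 1 and triangles for batch 2. Cd74, H2-Eb1 and H2-DMb1 were higher in all 7 deficient libraries, H2-Oa was lower in all 7, and H2-Ab1 ran from 7.82 to 39.6 CPM within the deficient libraries.

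Cd74, the invariant chain, gave 0, 0 and 13 counts in the controls, which is 0, 0 and 2.01 CPM. The deficient libraries held 18.5, 16.7, 15.6, 17.5, 22.8, 25.2 and 31.2 CPM. Cd74 lies on the plus strand at chr18:60803848-60812652. No control came near the deficient levels: the lowest deficient library, which was also the shallowest of that diet, held 110 counts. The group means were 0.671 ± 1.16 CPM (SD, n = 3) and 21.1 ± 5.63 CPM (SD, n = 7), a log2 fold change of 4.91 with a standard error of 0.47 (adjusted p = 6.91e-06). As a ratio of pooled counts the difference was 29.8-fold, with a 95% counting interval of 17.4 to 56.1. Against control libraries 1 and 2, which held 0 counts, Cd74 was at least 84.0-fold higher, taking 3 counts over both as the floor. Intervals and floors cover counting error only. Within batch 2 the log2 fold change was 3.73. Batch 2 held a single control, so its values here and for the other genes are given as sizes.

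H2-Eb1, a beta chain whose partner is the product of H2-Ea, held 2.07, 2.73 and 8.98 CPM in controls. In deficient libraries it held 37.6, 29.0, 23.8, 25.9, 63.2, 62.5 and 55.5 CPM, so the groups did not overlap. The log2 fold change was 3.22 with a standard error of 0.49 (adjusted p = 0.000655), 3.81 within batch 1 and 2.66 within batch 2. Deficient libraries 1 to 4 had more H2-Eb1 than control library 3, and their summed B cell markers lay below those of that control. Deficient libraries 5 to 7 had the most H2-Eb1 and also the highest B cell marker sums. The part of the B cell markers in H2-Eb1 was not tested. Without deficient libraries 5 to 7, a choice made after seeing the data, its log2 fold change was 3.51 (adjusted p = 1.97e-08). That fit left control library 3 alone in batch 2, where the batch term takes it up. The diet difference therefore rests on control libraries 1 and 2, here and for the genes below.

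H2-Aa, the alpha chain of the I-A molecule, held 1.72, 1.76 and 11.9 CPM in controls. The deficient libraries held 5.795, 10.2, 4.84, 9.93, 58.7, 58.7 and 58.4 CPM. Control library 3 therefore lay above deficient libraries 1 to 4, and deficient libraries 5 to 7 lay above all others. The log2 fold change of 2.67 had a standard error of 1.11 and did not pass (adjusted p = 0.0757). It was 3.27 within batch 1 (adjusted p = 0.192) and 2.24 within batch 2. Without deficient library 5 it was 2.18 and passed (adjusted p = 1.01e-06). Without deficient libraries 5 to 7 it was 2.07 (adjusted p = 0.000223). In that last fit the batch term took up control library 3, so its higher level did not enter the diet difference.

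H2-Ab1, the beta chain that pairs with H2-Aa, was present in every control, at 26.9, 29.8 and 33.7 CPM. The deficient libraries held 8.89, 8.79, 7.82, 11.02, 39.6, 38.9 and 34.0 CPM. Deficient libraries 1 to 4 thus lay below all controls, and deficient libraries 5 to 7 just above them. The means were 30.1 ± 3.43 CPM (SD, n = 3) and 21.3 ± 15.3 CPM (SD, n = 7), and the log2 fold change of -0.65 had a standard error of 0.57 (adjusted p = 0.372). It was -0.98 within batch 1 (adjusted p = 0.352) and 0.061 within batch 2. Without deficient libraries 5 to 7 it was -1.71 (adjusted p = 5.73e-10), and without deficient library 5 alone -1.07 (adjusted p = 0.0311). Control libraries 1 and 2 held 156 and 186 counts of H2-Ab1 beside 0 counts of Cd74 and of Ciita.

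The balance between the 2 chains of I-A differed between the diets. The ratio of H2-Aa to H2-Ab1 counts was 0.0641, 0.0591 and 0.353 in the controls. It was 0.652, 1.16, 0.618, 0.901, 1.48, 1.51 and 1.72 in the deficient libraries, all above the controls. Both beta chains also changed places, since the ratio of H2-Eb1 to H2-Ab1 counts was 0.0769, 0.0914 and 0.266 in controls and 4.23, 3.30, 3.04, 2.35, 1.60, 1.61 and 1.63 in deficient libraries. Here deficient libraries 1 to 4 had the highest ratios, and H2-Eb1 had more counts than H2-Ab1 in every deficient library, although its exons span 1944 bases against 2568. These ratios carry no scaling between libraries and were compared without a test.

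**Figure D2:**
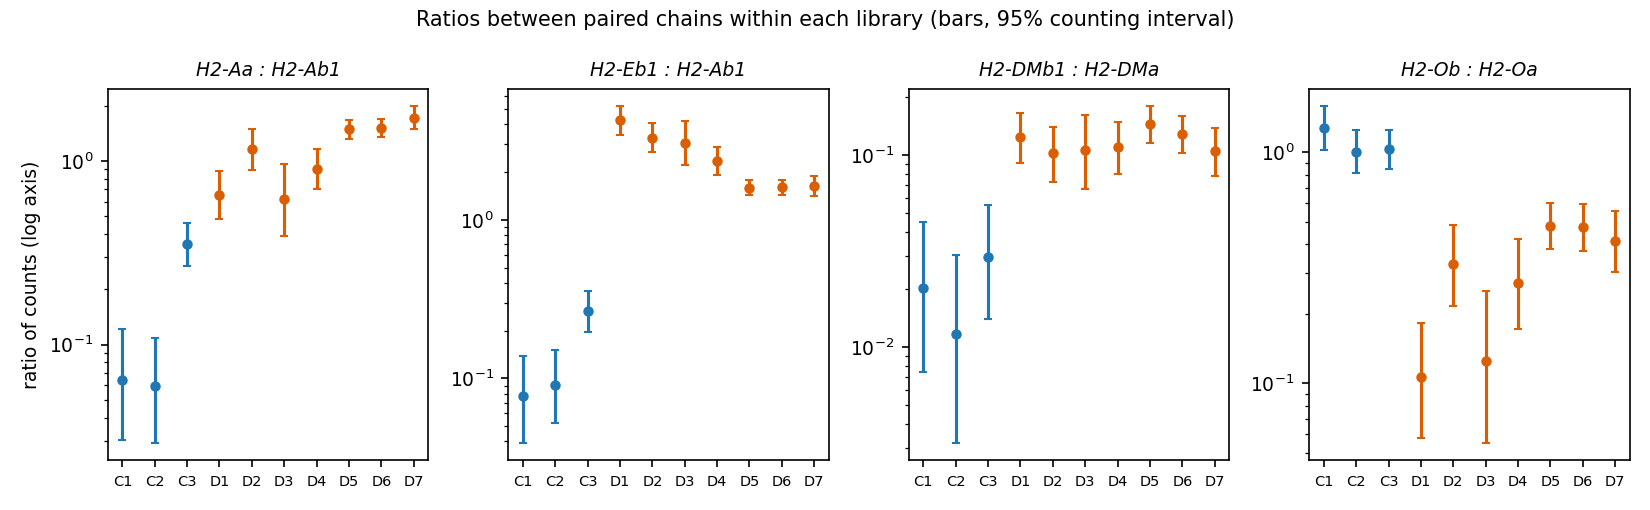
Ratio of raw counts between pairs of class II genes (log y axis) in each library, controls in blue and deficient in orange. Bars show the 95% exact binomial counting interval. H2-Eb1 and H2-Ab1 are both beta chains and not partners of each other. The first 3 ratios were higher in all 7 deficient libraries than in any control, and the ratio of H2-Ob to H2-Oa was lower in all 7.

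H2-DMb1, a beta chain of the H2-DM editor that frees the groove, held 1.03, 0.641 and 1.55 CPM in controls. The deficient libraries held 4.02, 3.18, 3.41, 3.75, 7.61, 6.77 and 6.45 CPM. None of them overlapped the controls, and the log2 fold change was 2.18 with a standard error of 0.37 (adjusted p = 0.000114). It was 2.30 within batch 1 and 2.03 within batch 2. H2-DMb1 shares 22.7% of its 50-base stretches with H2-DMb2, so reads may be split or lost between them. H2-DMb2 held 8.45, 7.54 and 9.44 CPM in controls and between 8.96 and 29.1 CPM in deficient libraries, with a log2 fold change of 1.08 (standard error 0.38, adjusted p = 0.0359). That call was lost without any 1 of the controls, where the adjusted p was 0.0616, 0.0907 and 0.176 without controls 1, 2 and 3, and without deficient library 6 or 7 (adjusted p = 0.0556 and 0.0596). It was also lost within batch 1 (adjusted p = 0.198), without the filter on low counts (0.0969) and without the batch term (0.0632).

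H2-DMa, the alpha chain of the same editor, held 50.5, 54.8 and 52.5 CPM in controls. The deficient libraries held 32.3, 31.2, 32.3, 34.2, 52.4, 52.7 and 61.5 CPM. As for H2-Ab1, deficient libraries 1 to 4 lay below the controls, while deficient libraries 5 to 7 lay among or above them. The log2 fold change of -0.41 (standard error 0.19) did not pass (adjusted p = 0.0868). It passed within batch 1 at -0.62 (adjusted p = 0.0265), was 0.055 within batch 2, and passed without control library 3 at -0.62 (adjusted p = 0.0227) and without deficient library 5 at -0.51 (adjusted p = 0.0053). Without deficient libraries 5 to 7 it was -0.79 (adjusted p = 2.47e-07). The ratio of H2-DMb1 to H2-DMa counts was 0.0205, 0.0117 and 0.0295 in controls and between 0.102 and 0.145 in deficient libraries. The 360 bases of exon that H2-DMa shares with Brd2 on the opposite strand make its level uncertain, since the strand setting of the counting is not given in the sources used here. Brd2 held 176 to 225 CPM, far above H2-DMa in every library.

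H2-Oa, the alpha chain of the H2-O inhibitor, was the only one of the 8 to pass downward. Its controls held 25.5, 28.4 and 33.6 CPM, and its deficient libraries 10.9, 7.88, 10.2, 7.74, 19.2, 17.3 and 18.2 CPM. The highest deficient library lay below the lowest control. The log2 fold change was -1.24 with a standard error of 0.25 (adjusted p = 0.00194), -1.36 within batch 1 and -0.98 within batch 2. Its antisense neighbour BC051537, which overlaps 321 bases of exon, held at most 0.721 CPM in any library.

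H2-Ob, the beta chain that pairs with H2-Oa and lies outside the 8, fell further. It held 32.4, 28.5 and 34.5 CPM in controls and 1.16, 2.58, 1.28, 2.11, 9.22, 8.19 and 7.51 CPM in deficient libraries. All deficient libraries lay below all controls, with a log2 fold change of -2.92 (standard error 0.54, adjusted p = 0.00212). The ratio of H2-Ob to H2-Oa counts was 1.27, 1.01 and 1.03 in controls and between 0.106 and 0.479 in deficient libraries. Deficient libraries 5 to 7, with the highest B cell marker sums, also had the highest H2-Ob among the deficient libraries. Control libraries 1 and 2, with the lowest sums (21.7 and 18.1 CPM), held more H2-Ob than any deficient library. B cells are known to make both H2-O chains, and the part of the B cell markers in this difference was not tested.

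Ciita, the coactivator that sets the level of the other genes in cells that display antigen, was near the limit of detection in controls, at 0, 0 and 3 counts. The deficient libraries held 6, 16, 4, 13, 55, 66 and 41 counts, which is 0.464, 1.21, 0.569, 1.02, 4.41, 4.91 and 4.81 CPM. The 3 counts of control library 3 gave 0.464 CPM, level with the lowest deficient library. The pooled ratio was 15.4-fold (95% counting interval 5.20 to 75.4), and the fitted log2 fold change 3.96 with a standard error of 1.15 (adjusted p = 0.0131). The call was lost without control library 3 (adjusted p = 0.0788) and within batch 1 (adjusted p = 0.0896), where both controls held 0 counts. Against these 2 controls Ciita was at least 10.03-fold higher. Dexi, which shares 329 bases of exon with Ciita on the opposite strand, held 4.65 to 10.3 CPM. In control libraries 1 and 2, where Ciita had 0 counts, Dexi held 4.65 and 8.66 CPM. Whether a few Ciita counts are antisense reads was not tested.

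**Figure D3:**
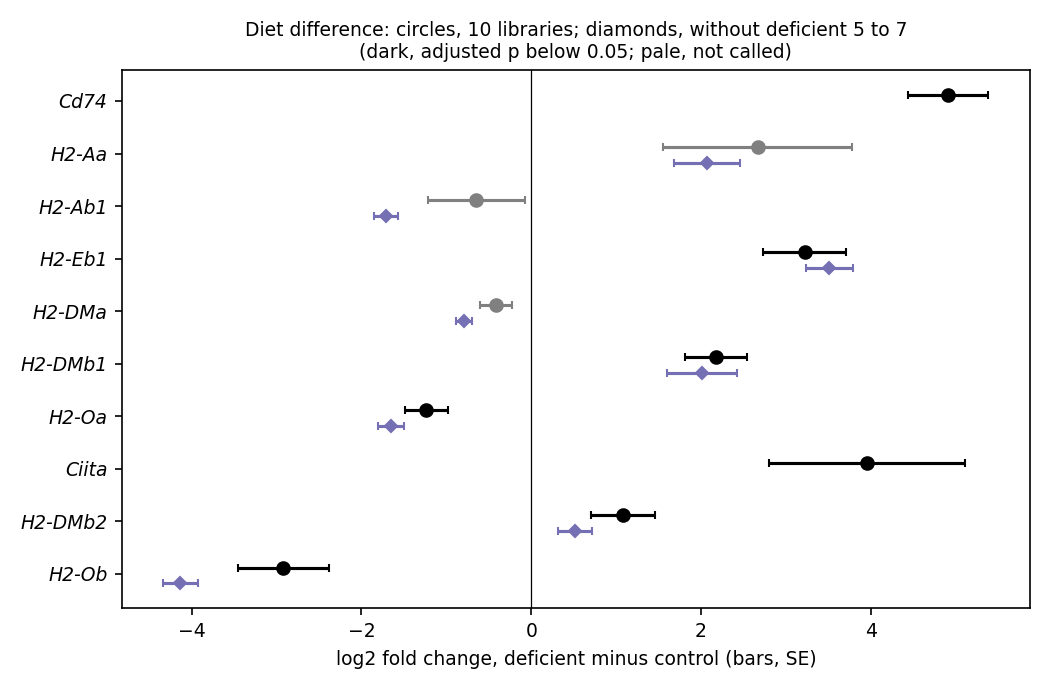
Fitted log2 fold change, deficient minus control (x axis, bars of 1 SE), for the 8 genes with H2-DMb2 and H2-Ob, over all 10 libraries (circles; dark where the adjusted p was below 0.05) and without deficient libraries 5 to 7 (diamonds). Diamonds for Cd74 and Ciita are not drawn: Ciita was not tested there, and the fitted value for Cd74, whose control libraries 1 and 2 held 0 counts, depends on the prior count. Removing the 3 libraries moved H2-Ab1 from -0.65 to -1.71 and H2-DMa from -0.41 to -0.79. Control library 3 was then alone in batch 2, so the diamonds rest on control libraries 1 and 2.

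Per length, the order of the genes differed between the diets. On a scale of CPM per kilobase of exon (RPKM), the controls had H2-Oa at 20.7 ± 2.91, H2-DMa at 15.3 ± 0.627 and H2-Ab1 at 11.7 ± 1.34 (SD, n = 3), followed by H2-Eb1 at 2.36 ± 1.96 and H2-Aa at 1.35 ± 1.55. H2-DMb1 at 0.639 ± 0.27, Cd74 at 0.399 ± 0.692 and Ciita at 0.0162 ± 0.0281 RPKM came last. The bands of 1 SD around H2-Eb1, H2-Aa, H2-DMb1 and Cd74 overlapped, so their order in controls is not settled. In deficient libraries H2-Eb1 led at 21.9 ± 8.98 RPKM (SD, n = 7), ahead of Cd74 at 12.6 ± 3.36, H2-DMa at 12.3 ± 3.68, H2-Oa at 9.28 ± 3.55, H2-Ab1 at 8.29 ± 5.95 and H2-Aa at 7.77 ± 7.19. Those 6 bands overlapped in turn, each with its neighbour, and the order depended on the library. H2-Aa ran from 1.27 to 2.67 RPKM in deficient libraries 1 to 4 and from 15.4 to 15.5 in libraries 5 to 7, and H2-Oa from 5.50 to 7.74 and from 12.3 to 13.7. H2-DMb1 at 2.99 ± 1.10 and Ciita at 0.261 ± 0.221 RPKM were again low.

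The remaining class II genes were scarce. H2-Eb2, a further beta chain gene, had 0 counts in all 3 controls and 1, 0, 0, 6, 20, 22 and 10 counts in the deficient libraries. That made it at least 4.53-fold higher in deficient libraries at a floor of 3 counts over the controls, and its test did not pass (adjusted p = 0.105). H2-Ea, the alpha partner of H2-Eb1, went the other way, with 0, 1 and 20 counts in controls and 0 counts in all 7 deficient libraries. Over the groups it was at least 30.4-fold higher in controls, almost wholly through control library 3. It was too low to be tested. The annotation calls H2-Ea a polymorphic pseudogene, and mice of the b haplotype, C57BL/6 among them, are known not to transcribe it. Control library 3 held 0.345 counts of H2-Ea for each count of H2-Eb1, while deficient libraries 5 to 7 held 0 with more H2-Eb1.

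Variation among the deficient libraries divided the genes as well. The highest deficient library exceeded the lowest 12.1-fold for H2-Aa, 10.6-fold for Ciita and 5.06-fold for H2-Ab1, and ratios at least as large were seen in 2.13%, 2.497% and 5.64% of all genes tested. Cd74 and H2-DMa ran over only 1.99-fold and 1.97-fold, which 25.1% and 25.6% of genes reached. H2-Eb1, H2-DMb1 and H2-Oa lay between, at 2.66-fold, 2.39-fold and 2.49-fold. In all 8 genes, deficient libraries 5 to 7 were the highest of the deficient libraries. Deficient library 5 carries the batch 1 label, and deficient libraries 6 and 7 the batch 2 label.

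Control library 3 and deficient libraries 6 and 7, which make up batch 2, were among the highest of their diet for H2-Aa, Ciita and H2-Ab1, with deficient library 5 of batch 1 beside them, and the batch term itself was tested. None of the 8 genes passed for batch (lowest adjusted p = 0.629, edgeR), although 5 of 8 had an unadjusted p below 0.05, as had 11 of 13 B cell markers. Over all genes 0 passed (0%) and 1038, or 7.58%, had an unadjusted p below 0.05. None passed for the product of diet and batch, where 1 of the 8, Cd74, had an unadjusted p below 0.05 (adjusted p = 0.947) and 0 genes passed overall (0%), with 565 at an unadjusted p below 0.05.

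Of 3 class II genes set against a B cell gene, H2-Aa kept the steadiest proportion to it. Cd79b, a signalling chain of the B cell receptor, held 2.07, 2.57 and 19.96 CPM in controls and 8.50, 16.3, 8.39, 14.4, 64.4, 60.1 and 69.8 CPM in deficient libraries, and did not pass the test (adjusted p = 0.0674). The ratio of Cd79b to H2-Aa counts stayed between 1.02 and 1.74 over all 10 libraries. H2-Eb1 did not keep such a proportion: the ratio of its counts to those of Cd79b ran from 0.450 to 1.06 in controls and from 0.795 to 4.43 in deficient libraries. Nor did Cd74, at 0 to 0.101 counts for each count of Cd79b in controls and 0.353 to 2.18 in deficient libraries. The choice of these pairs followed a look at their values, and no test was made.

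**Figure D4:**
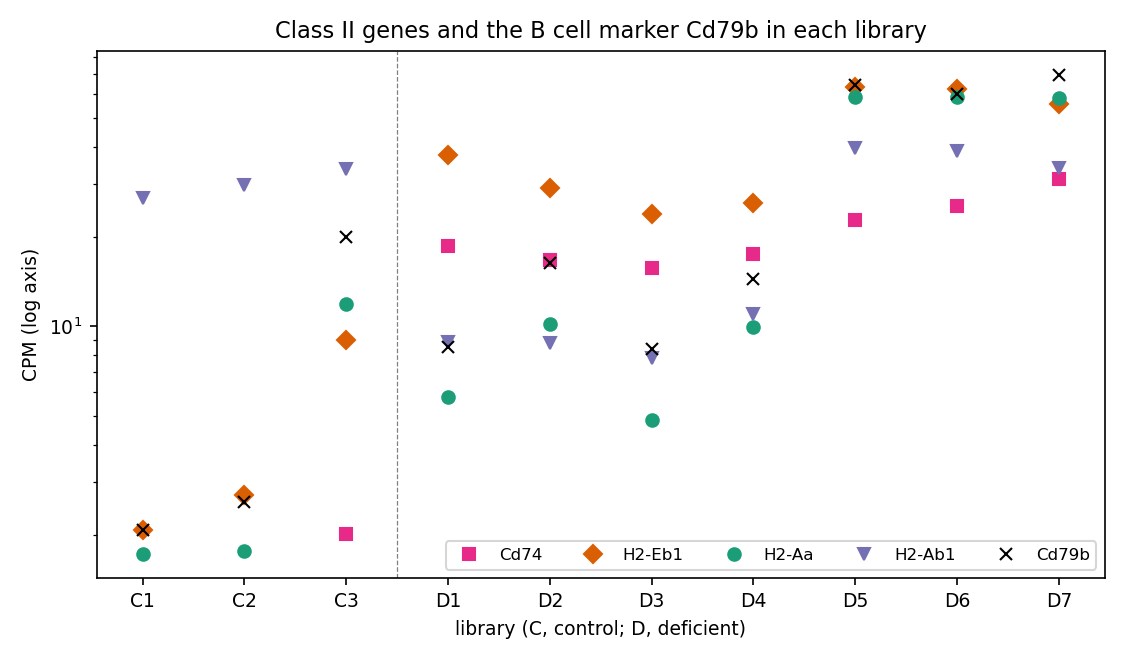
Level in CPM (log y axis) of Cd74, H2-Eb1, H2-Aa, H2-Ab1 and the B cell gene Cd79b in each library, controls C1 to C3 left of the dashed line and deficient D1 to D7 right of it. Cd74 held 0 counts in C1 and C2 and has no symbol there. H2-Aa and Cd79b lay close together in every library, while H2-Ab1 lay far above both in C1 and C2.

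By profile over the 10 libraries, the genes most like the mean of Cd74, H2-Aa, H2-Ab1 and H2-Eb1 were Cd8b1, a chain of the CD8 coreceptor, and Ighm, the IgM heavy chain. Likeness was the root mean square difference of centred log2(CPM + 0.5) values over 12542 genes with a mean of at least 1 CPM. It was 0.22 for Cd8b1 and 0.23 for Ighm, followed by Gm12250 (0.31), Serpina3g (0.33), Gzma (0.33), Ankrd33b (0.35), Gzmg (0.40) and Gm5541 (0.46). Gzma and Gzmg encode granzymes, proteases of cytotoxic granules. Cd8b1 held 7.59, 7.05 and 14.9 CPM in controls and 23.0 to 101 CPM in deficient libraries, highest in deficient libraries 5 to 7. Of the 8 class II genes, Ciita ranked 7, H2-Eb1 24, H2-DMb1 27 and H2-Aa 65 in that order. Cd74 ranked 2934, H2-DMa 7157, H2-Ab1 9691 and H2-Oa 11469, so 2 of the 4 genes behind the mean profile ranked far from it.

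Genes between the class II genes on chromosome 17 were measured for comparison. Tap1 and Tap2, which pump peptides for MHC class I, and Psmb8 and Psmb9, subunits of the immunoproteasome, all rose. Brd2, a bromodomain protein, fell, so 5 of 5 passed, beside 58% of all genes tested. Tap1 had the greatest change, from 102 to 238 CPM on average, a log2 fold change of 1.14 (adjusted p = 4.57e-09). Tap2 rose by 0.57, Psmb9 by 0.30 and Psmb8 by 0.22, and Brd2 fell by 0.19. Among the class II genes of the region that passed, H2-Oa at -1.24 and H2-Ob at -2.92 were lower, and H2-DMb2, H2-DMb1 at 2.18 and H2-Eb1 at 3.22 were higher.

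**Figure D5:**
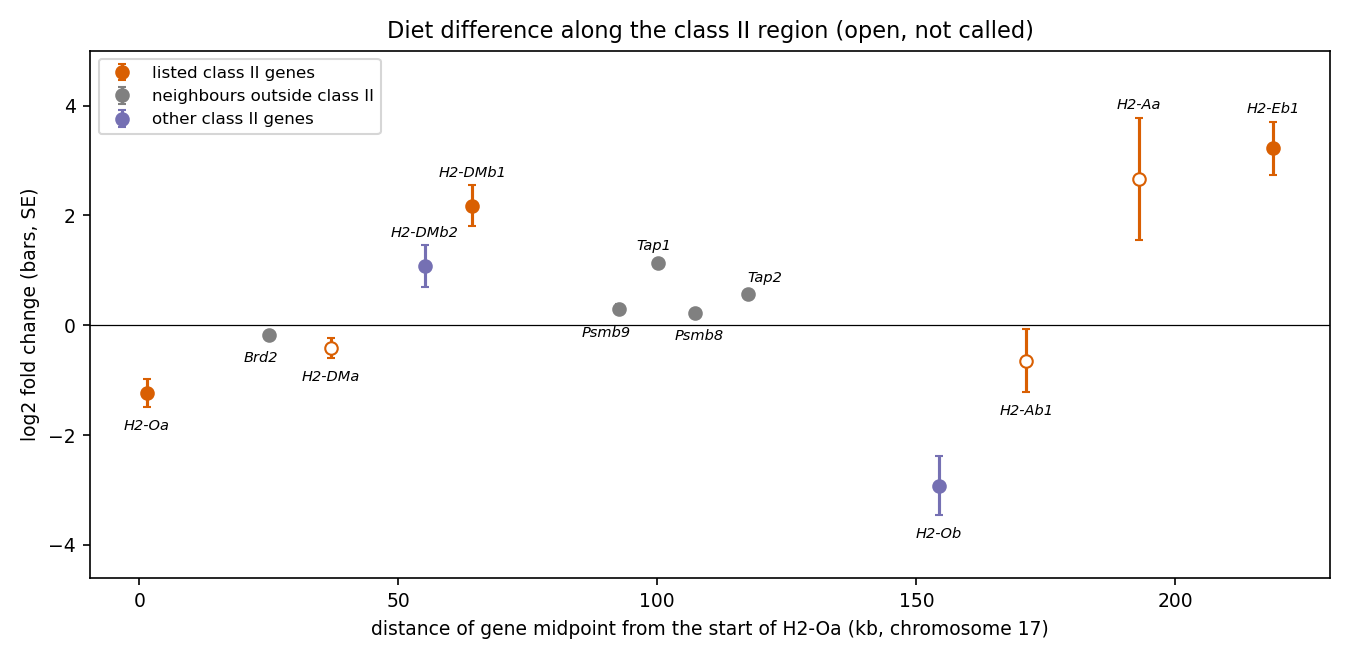
Fitted log2 fold change, deficient minus control (y axis, bars of 1 SE), of genes along the class II region, placed by the distance of the gene's midpoint from the start of H2-Oa in kilobases (x axis). Filled symbols passed at an adjusted p below 0.05, and H2-Eb2 is left out because its controls held 0 counts. Signs change along the region, from H2-Oa at -1.24 to H2-DMb1 at 2.18, H2-Ob at -2.92 and H2-Eb1 at 3.22.

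The factors that bind the X and Y boxes and the coactivators recruited to them were all measured. Of 10 genes 2 passed upward and 5 downward, beside 29.4% and 28.6% of all genes tested. The median log2 fold change of the 10 was -0.24. Rfxank, a subunit of the RFX complex that binds the X box, fell from 13.9 ± 1.60 CPM (SD, n = 3) to 6.33 ± 0.983 CPM (SD, n = 7), a log2 fold change of -1.21 (adjusted p = 4.17e-06). Kat2b, an acetyltransferase recruited by CIITA, fell from 102 ± 0.815 to 53.4 ± 5.06 CPM (adjusted p = 8.51e-09). The Y box subunits Nfyb and Nfya rose by 0.60 and 0.45 on the log2 scale (adjusted p = 2.13e-05 and 0.000532). Summed over the list, levels were 485 to 492.7 CPM in controls and 498 to 582 CPM in deficient libraries.

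Interferon gamma is the classical inducer of Ciita, through its receptor, the kinases Jak1 and Jak2, and the transcription factor Irf1. Of 9 genes on this path 4 passed upward and 3 downward, beside 29.4% and 28.6% of all genes tested. The median log2 fold change of the 9 was 0.02. Ifng, the cytokine itself, held 3.62, 2.24 and 7.58 CPM in controls and 36.8, 63.1, 56.3, 51.1, 198, 189 and 146 CPM in deficient libraries, a log2 fold change of 4.55 (adjusted p = 0.00245). Like all 8 class II genes it was highest in deficient libraries 5 to 7 among the deficient libraries, and its groups did not overlap. The receptor chain Ifngr2 fell from 79.8 ± 2.67 to 40.5 ± 6.19 CPM, by 1.06 on the log2 scale (adjusted p = 6.69e-07), and Jak2 and Jak1 fell by 0.75 and 0.48. Irf1, named after its values were seen, rose by 1.21 (adjusted p = 0.0119).

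Of 11 genes that prepare or remove class II cargo, 10 were tested, 6 passed upward and 0 downward. The ubiquitin ligase March8, which takes class II off the surface, rose from 6.07 ± 0.566 to 19.8 ± 2.24 CPM, a log2 fold change of 1.61 (adjusted p = 1.09e-07). Ctsl, a protease that trims the invariant chain, rose by 0.79, Ifi30, the thiol reductase of endosomes, by 0.63, and Sppl2a, which cuts the last membrane stub of Cd74, by 0.44. All deficient libraries lay above all controls for 6 of these 10 genes, beside 29.4% of all genes tested, the same share as passed upward.

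Of 6 ligands that accompany class II on antigen-presenting cells, 5 were tested, 4 passed upward and 0 downward. The shares over all genes tested were 29.4% and 28.6%. Cd80, a ligand of CD28, rose from 3.04 ± 1.06 to 19.0 ± 6.45 CPM, a log2 fold change of 2.59 (adjusted p = 1.7e-05), and Cd40 rose by 1.75 (adjusted p = 0.00384). Cd274 and Pdcd1lg2, the ligands of PD-1, each rose by 0.68. Activated T cells are known to carry several of these ligands as well. Cd86, named after its values were seen, held 0.345, 0 and 2.32 CPM in controls and 0.927, 2.05, 2.56, 2.03, 18.8, 23.2 and 24.2 CPM in deficient libraries, and did not pass (adjusted p = 0.0699).

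Marker lists of the cells that could carry class II gave mixed counts, beside 29.4% of all genes tested that passed upward and 28.6% downward. Among B cell markers Ighm rose by 2.45 (adjusted p = 0.0133) and Cd79a by 2.24 (adjusted p = 0.0399), and the list's median log2 fold change was 2.17. Of 12 dendritic cell markers 8 were tested, 3 passed upward and 1 downward, with summed levels of 243 to 275 CPM in controls and 159 to 268 CPM in deficient libraries. Of the 12, 2 were at 0 in all 7 deficient libraries (Clec9a and Siglech), and 0 were at 0 in all controls. In control libraries 1 and 2, 3 of the 12 were at 0 (Xcr1, Clec9a and Flt3). Batf3 rose by 1.75, Zbtb46 by 1.25 and Bst2 by 0.88, and the chemokine receptor Ccr7, also made by T cells, fell by 1.36. Of 10 macrophage and monocyte markers 4 were tested, 2 passed upward and 1 downward, and their sum was 16.2 to 17.96 CPM in controls and 6.82 to 12.1 CPM in deficient libraries. Cd68, the 1 marker that passed downward, fell by 1.88, while the 2 that passed upward rose. The median log2 fold change of the 4 tested markers was 0.17. The part of these cells in the class II values was not tested.

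Markers of other lymphocytes moved between the diets too, where 29.4% of all genes tested passed upward and 28.6% downward. Of 10 markers of CD8 T cells and natural killer cells 7 passed upward and 0 downward, and their summed level was 75.7 to 150 CPM in controls and 585 to 1657 CPM in deficient libraries. Gzmb, granzyme B, rose from 73.5 to 847 CPM on average, by 3.52 on the log2 scale, and Nkg7 by 4.63. Of 10 T cell markers 1 passed upward and 7 downward, with sums of 2922 to 2960 CPM and 2119 to 2333 CPM, and Cd4 fell from 723 to 335 CPM on average, by 1.20. Of 8 mast cell and basophil markers 7 were tested, 3 passed upward and 0 downward, at sums of 17.8 to 22.9 CPM and 24.1 to 74.6 CPM. The part of these lists in the class II values was not tested.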

How the data were processed

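The deposited table held unnormalised read counts by Ensembl gene ID in 10 libraries, and 0 of its columns belonged to other samples. RNA came from day 5 cultures and was made into stranded total RNA libraries, per the labels' protocols. STAR 2.7.10a, HTSeq 0.13.5 and GRCm38 are named in the submitters' processing notes. Strand setting and annotation release: not given in the sources used here. Libraries were grouped by the treatment and batch labels, and replicate numbers follow accession order.

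Symbols came from GENCODE M21, which matched 49326 of 49671 IDs. CPM used library totals, and RPKM divided it by the exon union. Counts were fitted in R 4.3.3 with edgeR 4.0.16 (filterByExpr with a minimum count of 10, TMM, robust glmQLFit, glmQLFTest) on diet and batch, with a call at a p adjusted by Benjamini-Hochberg below 0.05. Log2 fold changes are deficient minus control. On simulated counts for this comparison (13699 genes) a fold of 1.5 was found for 30 of 67 altered genes, a fold of 2 for 53 of 67 and a fold of 4 for 58 of 66. Of 155 calls 14 were false. The simulation gave every gene the same spread beyond counting noise (a coefficient of variation of 12.7%) and no batch effect. These rates do not carry over to genes that vary more among libraries, such as H2-Aa. All replicate pairs differed beyond sampling noise (chi-square per gene 2.82 to 49.9).

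The genes and lists were chosen with earlier results of these data known. Named genes are the 8, the other class II genes, up to 4 of smallest adjusted p per list, and the 8 of most similar profile. Others are marked as chosen after their values were seen, and 1 gene of the lists is not reported here. Gata3, Il4, Il5, Il13, BC051537, Dexi, Brd2, Cd79b, Clec9a, Siglech, Xcr1 and Flt3 stand outside the rule and were also named after that. Alternatives covered scaling (median of ratios, upper quartile, total counts) and filters (none, minimum count of 50). Other tools were DESeq2 1.42.0 and limma-voom with a quality weight for each library (limma 3.58.1), called limma-voom elsewhere. Further alternatives were no robust estimation, no batch term, each batch alone, each library left out, thinned counts and an adjusted p below 0.01. Figures used matplotlib 3.10.9.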

Additional observations from a re-analysis of the deposited data

How the results depend on the processing

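Cd74, H2-Eb1, H2-DMb1, H2-Oa and H2-Ob kept their direction and their call under every alternative run. The count of the 8 genes that passed upward was 4, with a range of 3 to 5 over fits that left out 1 library. It was 3 within batch 1 and at an adjusted p below 0.01, and 5 within batch 2, without robust estimation, with limma-voom, and without control library 3 and deficient libraries 5 to 7. The count that passed downward was 1, and 2 with DESeq2, which gave H2-Aa no adjusted p, and within batch 1. It was 3 with limma-voom, without deficient libraries 5 to 7, and without these and control library 3. Over fits that left out 1 library it ranged from 1 to 3, with 2 without control library 3 and 3 without deficient library 5. Direction reversed only within batch 2, for H2-Ab1 (0.061) and H2-DMa (0.055), where neither passed. The batch 2 fit assumes that its lone control varies like the other samples. H2-Aa passed at 2.67 without robust estimation, at 2.25 with limma-voom and at 2.24 within batch 2. The cause of these changes was not tested, apart from the libraries removed.

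Counts over all genes stayed within 1.5 times, from 3432 to 4107 upward and 3341 to 3988 downward over fits that left out 1 library. The count of B cell markers that passed upward was 2 over all libraries and ran from 0 to 10 over the alternatives, with 9 without deficient library 5. Joined over both directions, 5 of the 8 genes passed, beside 58% of all genes. Without deficient libraries 5 to 7, Ciita was not tested and the other 7 all passed, beside 56.4%. All 8 passed without deficient library 5 (61.9% of all genes) and with limma-voom (60.7%). All 8 also passed without control library 3 and deficient libraries 5 to 7 (56.5%). No paired analysis was possible because the labels give no replicate numbers that the diets share. Depth limits genes near 0 counts in controls, such as Ciita, H2-Eb2 and Cd74, where 1 count is worth up to 0.172 CPM. With all libraries thinned to the shallowest, Cd74 was 4.77 and Ciita 4.04 and both passed. The alternatives without deficient libraries 5 to 7 were chosen after seeing the data. Both rest on control libraries 1 and 2, since control library 3 was either left out or alone in batch 2.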
